A study of Mus musculus with 6 samples.

Results

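The cluster of miR-183, miR-96 and miR-182 is a group of 3 microRNA (miRNA) hairpins, Mir183, Mir96 and Mir182, that lie close together on mouse chromosome 6 and are cut from a common primary transcript. Each hairpin gives a mature miRNA from its 5′ arm (5p) and from its 3′ arm (3p). The cluster was taken as the 6 rows of the deposited miRNA table that bear these names, which are mmu-miR-182-5p, mmu-miR-182-3p, mmu-miR-183-5p, mmu-miR-183-3p, mmu-miR-96-5p and mmu-miR-96-3p, out of 1831 miRNAs in that table. The rows were taken by name and not by a measured value, but the members were chosen with earlier results of these data known. The prefix mmu, for mouse, is left out below where it would only be repeated. Small RNA was measured in the small intestine of 3 wildtype littermates and 3 Cdr1as-/- mice, with each mouse on a 1-colour array. Both groups were on the C57BL/6J background, no treatment was given in the labels, and the ages of these mice were not given in the sources used here. In Cdr1as-/- mice the locus of the circular RNA Cdr1as had been removed with CRISPR/Cas9 from the whole animal, so the deletion is not limited to the epithelium. Cdr1as itself is not in the miRNA table, and the genotypes were therefore not checked on these arrays.

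The miR-183 family is known from the hair cells of the inner ear, the retina and sensory neurons, where its members act together in the maturation and upkeep of sensory cells. The 3 miRNAs are also made in epithelia and are often abundant in epithelial tumours. Among their known targets are transcripts of FOXO transcription factors, which miR-96-5p and miR-182-5p repress. Cdr1as is best known as a circular RNA with many binding sites for miR-7.

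The 5p strands are shown here with the seed, the bases that pair with targets, in capitals, because the family is defined by its seeds. All sequences are from RefSeq on build GRCm38.p6, read 5′ to 3′, and those of the 6 members were identical to the sequences in the deposited table.
miR-183-5p: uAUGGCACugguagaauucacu
miR-96-5p: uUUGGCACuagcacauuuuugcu
miR-182-5p: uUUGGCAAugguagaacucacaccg
The capitals mark bases 2 to 8. A run of 5 bases, UGGCA at bases 3 to 7, was common to the 3 seeds. The seeds of miR-182-5p and miR-96-5p shared a run of 6 bases, UUGGCA, and those of miR-183-5p and miR-96-5p shared the run UGGCAC. Over their whole length, miR-182-5p and miR-183-5p were the closest pair, with the same base at 18 of 22 positions counted from the 5′ end, against 12 of 23 for miR-182-5p and miR-96-5p and 13 of 22 for miR-183-5p and miR-96-5p. No 2 members therefore had the same 7-base seed.

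The 3p strands are shown for contrast, since none of their seeds holds the run UGGCA.
miR-183-3p: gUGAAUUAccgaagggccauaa
miR-96-3p: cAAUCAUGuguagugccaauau
miR-182-3p: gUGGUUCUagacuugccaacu

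The whole hairpins follow in the order of transcription, with the mature strands in capitals, because the comparison of the strands below rests on which arm each probe set measures.
Mir183: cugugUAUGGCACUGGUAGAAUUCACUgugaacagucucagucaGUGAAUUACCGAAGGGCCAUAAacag
Mir96: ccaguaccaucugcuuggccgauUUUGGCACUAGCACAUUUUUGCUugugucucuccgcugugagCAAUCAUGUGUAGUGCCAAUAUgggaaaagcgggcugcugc
Mir182: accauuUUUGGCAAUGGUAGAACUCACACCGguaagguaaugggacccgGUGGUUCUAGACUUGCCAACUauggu
Mir183 lies at chr6:30169668-30169737, Mir96 at chr6:30169446-30169551 and Mir182 at chr6:30165918-30165992, all on the minus strand and inside the annotated host gene Mirc35hg. Mir183 and Mir96 are 116 bases apart, Mir96 and Mir182 are 3453 bases apart, and the 3 hairpins span 3820 bases.

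The arrays were not alike, and littermate 3 stood apart. Before any scaling between arrays, the median of the background-subtracted scanner signal (the processed signal) over all miRNA probes was 8.75, 11.2 and 236 in littermates 1 to 3 and 29.2, 14.1 and 11.2 in Cdr1as-/- mice 1 to 3. Probes well above background made up a share that ranged from 41.5% of miRNA probes in Cdr1as-/- mouse 2 to 100% in littermate 3. After the authors' normalization, the SD over all miRNAs of the difference from the mean of littermates 1 and 2 was 1.71 (log2) for littermate 3, against 0.788 for Cdr1as-/- mouse 1, 0.458 for mouse 2 and 0.528 for mouse 3. Cdr1as-/- mouse 1 had the second highest signal and resembled littermate 3 more closely than any other array did (Spearman's rho over miRNAs 0.914). The 3 littermates and Cdr1as-/- mouse 1 were on slide 1, and the other Cdr1as-/- mice were on slide 2. The scan identifier of littermate 1 was found on no other array. Whether the other arrays shared an identifier was not examined. The results for the cluster are therefore given with and without littermate 3.

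The 3 guide strands of the family, which are the 5p strands that act in gene silencing, had the same profile over the 6 arrays. The normalized level (log2 intensity) of mmu-miR-183-5p, a miRNA of sensory cells and epithelia, was 7.42, 7.53 and 3.86 in littermates 1 to 3 and 5.53, 6.82 and 6.75 in Cdr1as-/- mice 1 to 3. The level of mmu-miR-96-5p, whose seed is mutated in an inherited form of deafness, was 8.31, 8.58 and 4.23 among the littermates and 6.48, 8.20 and 8.02 in the Cdr1as-/- mice. The level of mmu-miR-182-5p was 8.03, 8.03 and 4.33 among the littermates and 5.94, 7.72 and 7.59 in the Cdr1as-/- mice. For all 3, littermate 3 was lowest, Cdr1as-/- mouse 1 came next, and littermates 1 and 2 were highest. The littermates thus held both the highest and the lowest levels, and the groups overlapped.

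The 3p strands, which are mostly degraded as passengers, had a smaller range. The level of mmu-miR-183-3p was 5.54, 5.64 and 4.12 among the littermates and 4.84, 5.08 and 5.34 in the Cdr1as-/- mice, in which the order of the arrays followed that of the 5p strands only in part. The level of mmu-miR-96-3p was 3.45, 3.58 and 3.12 among the littermates and 3.12, 3.11 and 3.10 in the Cdr1as-/- mice. The level of mmu-miR-182-3p was 2.80, 3.15 and 3.02 among the littermates and 3.03, 3.25 and 2.70 in the Cdr1as-/- mice. Both of these last strands were close to the lowest values of the arrays. Of their values for single probes, 9 of 30 for miR-96-3p and 5 of 12 for miR-182-3p were the lowest value of the array, and 20 of 30 and 6 of 12 were well above background. The corresponding counts well above background were 29 of 30 for miR-182-5p, miR-183-5p and miR-183-3p, and 26 of 30 for miR-96-5p.

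**Figure D1:**
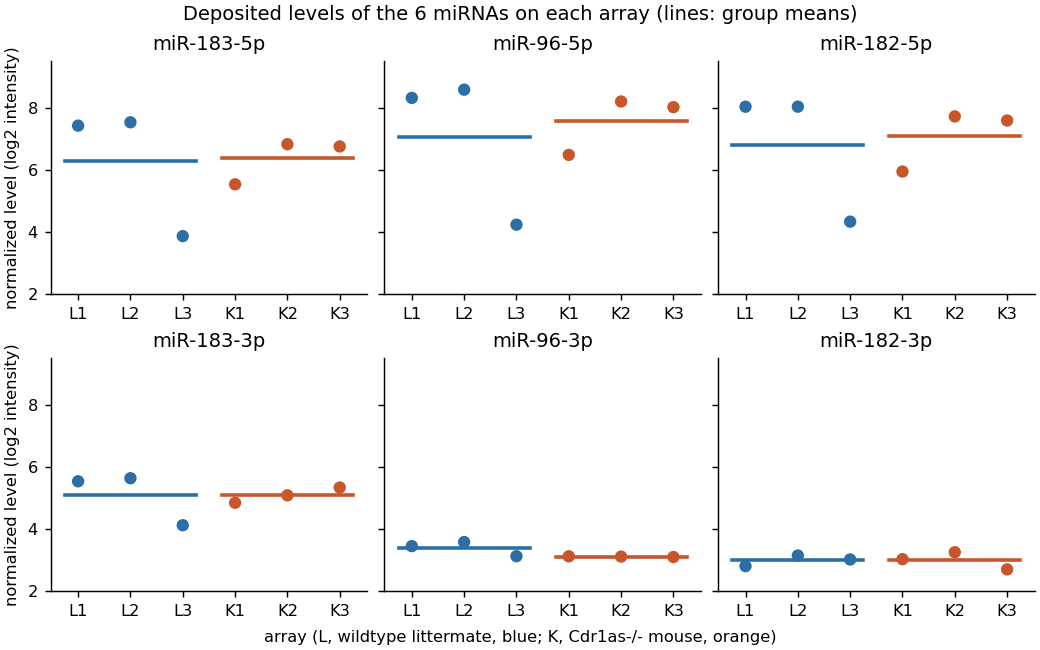
Normalized level (log2 intensity, y axis) of each member of the cluster on the 6 arrays (x axis; L1 to L3, wildtype littermates 1 to 3; K1 to K3, Cdr1as-/- mice 1 to 3), with a line at each group's mean. The 5p strands, in the upper panels, share a profile in which L3 is lowest and K1 next, while miR-96-3p and miR-182-3p lie between 2.70 and 3.58.

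The comparison of the genotypes asks whether loss of Cdr1as changed the miRNAs of the intestinal mucosa. With all 6 arrays, no member of the cluster passed the test. The log2 fold change, Cdr1as-/- minus littermate, was 0.10 ± 1.04 (SE, n = 3 per group) for miR-183-5p, 0.52 ± 1.23 for miR-96-5p and 0.29 ± 1.11 for miR-182-5p, and each was smaller than its error. For the 3p strands it was -0.01 ± 0.46 for miR-183-3p, -0.27 ± 0.23 for miR-96-3p and 0.00 ± 0.25 for miR-182-3p. All 6 had an adjusted p of 1.0 in limma with Benjamini-Hochberg adjustment over the 1831 miRNAs. No miRNA of the table passed that test (0%), while an unadjusted p below 0.05 was reached by 4 lower (0.218%) and 2 higher miRNAs (0.109%), none of them from the cluster. The median log2 fold change was 0.05 over the 6 members and -0.07 over all miRNAs. The p-values measure the spread between arrays, and with 1 array per mouse the spread between mice cannot be told apart from it.

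A single member, miR-96-3p, had every Cdr1as-/- mouse below every littermate with all 6 arrays, as did 2.73% of all miRNAs. The exact permutation test gave p = 0.1, the smallest p that 3 mice against 3 allow (two-sided), and the gap between the lowest littermate and the highest Cdr1as-/- mouse was within rounding (3.12 in each).

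Without littermate 3, the 3 guide strands had lower mean levels in Cdr1as-/- mice, but none passed the test after adjustment. The log2 fold change (3 Cdr1as-/- mice against 2 littermates) was -1.11 ± 0.39 (SE) for miR-183-5p, with an unadjusted p of 0.0183 and an adjusted p of 0.274 in limma. It was -0.88 ± 0.47 for miR-96-5p, with an adjusted p of 0.393, and -0.95 ± 0.48 for miR-182-5p, with an adjusted p of 0.388. Among the 3p strands it was -0.50 ± 0.25 for miR-183-3p, -0.40 ± 0.23 for miR-96-3p and 0.02 ± 0.26 for miR-182-3p, with adjusted p of 0.388, 0.397 and 0.970. At an unadjusted p below 0.05 miR-183-5p was the single member of 6, where the whole table had 192 lower miRNAs (10.5%) and 50 higher ones (2.73%), and 0 (0%) passed after adjustment.

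In the same arrays, every Cdr1as-/- mouse was below both littermates for 5 of the 6 members, all but miR-182-3p, against 365 of 1831 miRNAs (19.9%). For each of the 5, the exact permutation test gave p = 0.2, which is the smallest that 3 against 2 allow, so this design cannot reach the threshold. The median log2 fold change was -0.69 over the members and 0.10 over all miRNAs. The members are strands of a shared transcript and are not independent of each other.

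Among the Cdr1as-/- mice, mouse 1 lay furthest below littermates 1 and 2 for each 5p strand. With both that mouse and littermate 3 left out, an alternative chosen after the data were seen, the log2 fold change (2 mice per group) was -0.69 ± 0.23 (SE) for miR-183-5p, -0.34 ± 0.24 for miR-96-5p and -0.38 ± 0.23 for miR-182-5p. The adjusted p in limma was 0.410, 0.658 and 0.658. The unadjusted p of miR-183-5p was 0.0175, where 8.19% of all miRNAs were lower at an unadjusted p below 0.05. Both remaining Cdr1as-/- mice were below both littermates for 5 of the 6 members, against 23.6% of all miRNAs. In this subset the 2 littermates were on slide 1 and the 2 Cdr1as-/- mice on slide 2, so that slide and genotype cannot be told apart. Within slide 1, Cdr1as-/- mouse 1 minus the mean of the 3 littermates was -0.74 for miR-183-5p, -0.56 for miR-96-5p and -0.85 for miR-182-5p, with 1 mouse against 3.

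**Figure D2:**
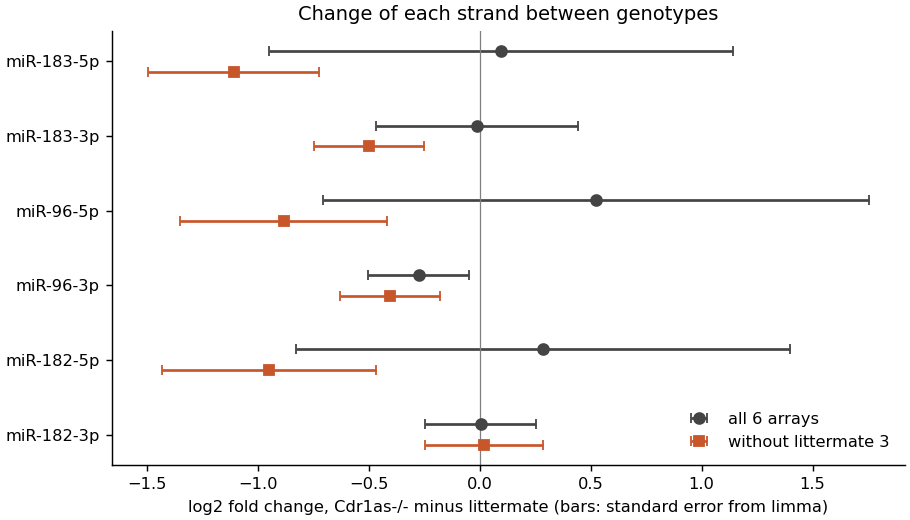
Log2 fold change of each strand (x axis, Cdr1as-/- minus littermate) with its standard error from limma, with all 6 arrays (circles) and without littermate 3 (squares). The 3 5p strands move from between 0.10 and 0.52 to between -1.11 and -0.88 when littermate 3 is left out, and miR-182-3p stays at 0.02 or less.

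The wide range of the guide strands over the arrays was not seen in their brightest probes before scaling. Before scaling, the brightest probe of miR-182-5p had a processed signal of 232, 276 and 302 among the littermates and 230, 234 and 239 in the Cdr1as-/- mice. The highest of these was 1.31 times the lowest. The brightest probe of miR-96-5p gave 381, 586 and 452 among the littermates and 487, 474 and 474 in the Cdr1as-/- mice, a ratio of 1.54. That of miR-183-5p gave 78.8, 91.6 and 137 among the littermates and 89.9, 69.4 and 78.2 in the Cdr1as-/- mice, a ratio of 1.97. On the log2 scale these signals ranged over 0.39, 0.62 and 0.98, whereas the deposited normalized levels of the same miRNAs ranged over 3.70, 4.35 and 3.67. The 2 arrays on which the guide strands were lowest after normalization, littermate 3 and Cdr1as-/- mouse 1, were those with the highest median signal over all miRNA probes.

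Taken before scaling, the log2 difference between genotypes was -0.20 for miR-182-5p, -0.34 for miR-183-5p and 0.04 for miR-96-5p (exact permutation, p = 0.3, 0.2 and 0.7, n = 3 per group), beside a median over all miRNAs of -0.74. Without littermate 3 it was -0.11, -0.11 and 0.02, beside a median over all miRNAs of 0.79. Without littermate 3 and Cdr1as-/- mouse 1 it was -0.10, -0.21 and 0.00. With all 6 arrays, and without littermate 3, the groups overlapped for every member before scaling. With both arrays left out they did not overlap for miR-183-5p and miR-96-3p. The share of all miRNAs without overlap was not counted before scaling, so nothing is read from these members. In the deposited values of the same arrays, both Cdr1as-/- mice were below both littermates for 23.6% of all miRNAs. That share is on another scale and is no background for the signals before scaling. Without littermate 3, the guide strands had lower mean levels after normalization. Before scaling, the signal of their brightest probes differed there by 0.11 or less on the log2 scale. With Cdr1as-/- mouse 1 also left out, that of miR-183-5p differed by -0.21. The part of the array-wide signal in the normalized differences was not tested.

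The probes of a single miRNA also did not keep their ratio from array to array. The processed signal of the dimmest probe of miR-96-5p was 3.65, 5.97 and 75 in littermates 1 to 3 and 12.3, 6.67 and 5.21 in Cdr1as-/- mice 1 to 3. Its brightest probe exceeded its dimmest by 104, 98.2 and 6.03 times among the littermates and by 39.6, 71.1 and 91.0 times in the Cdr1as-/- mice. For miR-182-5p the same ratio was 17.1, 18.9 and 2.46 among the littermates and 10.6, 15.1 and 17.1 in the Cdr1as-/- mice. Both ratios were lowest in littermate 3 and next lowest in Cdr1as-/- mouse 1. For miR-183-5p it fell to 1.399 in littermate 3, where the other arrays gave 3.58 to 4.13. In littermate 3 the fifth percentile of the signal over all miRNA probes was 39.4, against 1.42 to 6.26 on the other arrays.

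**Figure D3:**
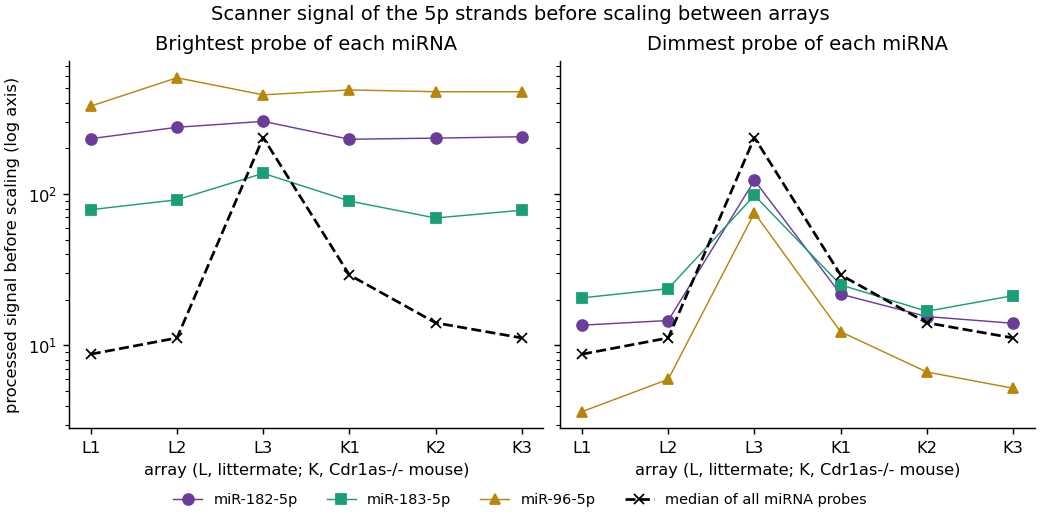
Processed signal before scaling (log axis) of the brightest probe (left) and the dimmest probe (right) of each 5p strand on the 6 arrays, with the median of all miRNA probes as a dashed line; the lines join arrays only to help follow a probe. The brightest probes stay within 1.31 to 1.97 times of their lowest value, while the dimmest probes peak in littermate 3 together with the median, which was 236 there.

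The brightest probes of the 3p strands ranged more widely before scaling. The brightest probe of miR-183-3p gave 19.3, 24.1 and 147 among the littermates and 41.6, 24.3 and 23.3 in the Cdr1as-/- mice. That of miR-96-3p gave 8.4, 8.65 and 68.5 among the littermates and 10.5, 5.70 and 5.69 in the Cdr1as-/- mice. That of miR-182-3p gave 1.70, 5.12 and 51.2 among the littermates and 9.90, 7.76 and 2.36 in the Cdr1as-/- mice. All 3 were highest in littermate 3, as the median probe was, at 7.62, 12.04 and 30.1 times their lowest value.

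The strands of a hairpin come from the same precursor, and their levels were compared as the difference 5p minus 3p. The size of this difference depends on the probes and is not a ratio of abundance. Since miR-96-3p and miR-182-3p lay near the lowest values of the arrays, with ranges of 0.48 and 0.55, the difference for Mir96 and Mir182 mostly followed the level of the 5p strand and does not separate a change of strand from a change of precursor. For Mir183 it was 1.88, 1.89 and -0.26 (log2) among the littermates and 0.69, 1.74 and 1.41 in the Cdr1as-/- mice. For Mir96 it was 4.86, 5.0 and 1.11 among the littermates and 3.36, 5.09 and 4.92 in the Cdr1as-/- mice. For Mir182 it was 5.22, 4.89 and 1.31 among the littermates and 2.91, 4.46 and 4.89 in the Cdr1as-/- mice. All 3 hairpins had their smallest difference in littermate 3 and the next smallest in Cdr1as-/- mouse 1, and the groups overlapped.

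With all 6 arrays, the strand difference changed between genotypes by 0.11 ± 0.68 (SE, n = 3 per group) for Mir183, 0.80 ± 1.14 for Mir96 and 0.28 ± 1.14 for Mir182. Each had an adjusted p of 0.992 in limma over the 659 miRNAs of the table with both strands. None of these 659 passed after adjustment (0%), and an unadjusted p below 0.05 was reached by 3 lower (0.455%) and 1 higher (0.152%). Without littermate 3 the changes were -0.61 ± 0.38, -0.48 ± 0.53 and -0.97 ± 0.56, with adjusted p of 0.453, 0.674 and 0.425. There, an unadjusted p below 0.05 was reached by 5.61% of the 659 in the lower and 10.9% in the higher direction, none of them from the cluster, and 0% passed after adjustment.

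The hairpins differed much less from each other than the arrays did. The level of miR-182-5p minus that of miR-183-5p was 0.61, 0.50 and 0.47 (log2) among the littermates and 0.41, 0.89 and 0.84 in the Cdr1as-/- mice. The level of miR-96-5p minus that of miR-183-5p was 0.89, 1.05 and 0.37 among the littermates and 0.95, 1.38 and 1.27 in the Cdr1as-/- mice. The level of miR-182-5p minus that of miR-96-5p was -0.29, -0.55 and 0.10 among the littermates and -0.54, -0.48 and -0.43 in the Cdr1as-/- mice. The ranges over the arrays were 0.48, 1.01 and 0.65, against 3.67 to 4.35 for the levels themselves.

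Between genotypes these differences changed by 0.19, 0.43 and -0.24, and the first was -0.11 with the slide as a block. In 3 exact permutation tests, the p was 0.4, 0.2 and 0.4 with all 6 arrays, and 0.4 each after Benjamini-Hochberg adjustment over the 3 pairs. Without littermate 3 the changes were 0.16, 0.22 and -0.07 (exact permutation, p = 0.6, 0.4 and 0.8). A change of a single hairpin relative to the others was thus not detected, in a design whose smallest p is 0.1.

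**Figure D4:**
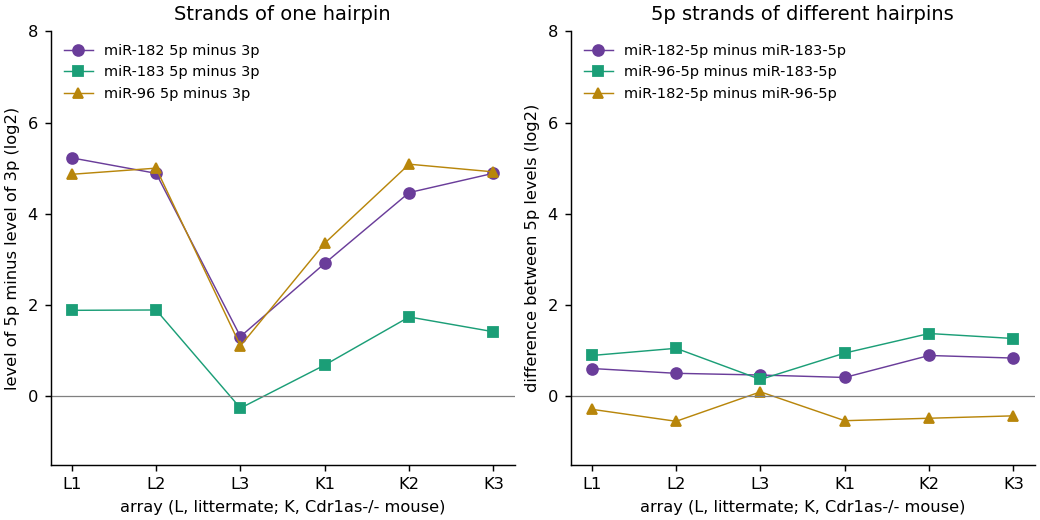
Difference between the strands of each hairpin (left, level of 5p minus level of 3p) and between the 5p strands of the hairpins (right), in log2 units, on the 6 arrays; the lines join arrays only to help follow a pair. The strand differences fall to between -0.26 and 1.31 in L3, while the differences between 5p strands stay between -0.55 and 1.38 on all arrays.

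Across the table, the guide strands were among the miRNAs that varied most between arrays. The SD over the 6 arrays was 1.398 for miR-183-5p, 1.68 for miR-96-5p and 1.498 for miR-182-5p, which was larger than that of 92.2%, 95.9% and 93.4% of the miRNAs. It was 0.56 for miR-183-3p and 0.21 for both miR-96-3p and miR-182-3p, beside a median of 0.41 over all miRNAs. Without littermate 3 the SD of the guide strands was still larger than that of 96.4%, 97.6% and 98.4% of the miRNAs. These ranks are over all miRNAs, whose median level was 4.61 to 4.77 on the arrays. Outside littermate 3, the guide strands lay above that. A ranking among miRNAs of like level was not made.

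The miRNAs whose profile was most like that of the 5p strands were found by the SD, over the 6 arrays, of the difference from the mean of the 3 strands, after each profile was centred on its own mean. The closest was miR-185-5p, with an SD of 0.08, followed by miR-194-1-3p (0.14), miR-425-5p (0.21), miR-1902 (0.22) and miR-345-5p (0.22). The median SD over the 1825 miRNAs outside the cluster was 1.68. The level of miR-185-5p was 8.57, 8.60 and 4.66 among the littermates and 6.58, 8.10 and 7.87 in the Cdr1as-/- mice, so it had the same order of arrays. All 5 had levels in littermates 1 and 2 between 7.28 and 8.60, near those of the 5p strands, and all 5 were lowest in littermate 3 and next lowest in Cdr1as-/- mouse 1. This is a description over 6 arrays that share their scaling. Without littermate 3, miR-185-5p and miR-194-1-3p were again the closest.

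The tissue was checked with miRNAs that mark its cell types. Of the 8 epithelial miRNAs, the miR-200 family and the miR-192 group, all were in the table, and their summed linear level was 147065, 146534 and 67437 in littermates 1 to 3 and 135373, 137078 and 146693 in the Cdr1as-/- mice. The lowest level of any of them was 7.06, that of miR-429-3p in littermate 3, so that markers of the labelled tissue were present on every array. The level of miR-192-5p, an abundant miRNA of the gut epithelium, was 13.98, 14.08 and 11.64 among the littermates and 13.86, 14.02 and 13.88 in the Cdr1as-/- mice. All 8 were lowest in littermate 3, as the guide strands of the cluster were, against 22.1% of all miRNAs. This was not particular to the epithelial list. In the lists below, littermate 3 was lowest for 5 of 6 immune miRNAs and 6 of 7 of smooth muscle and mesenchyme. It was lowest for 2 of 3 erythroid miRNAs and 3 of 5 of sensory, neuronal and endocrine cells. Each of the 8 epithelial levels was also centred on its own mean over the arrays. Their median was then 0.18 in Cdr1as-/- mouse 1, against 0.51 and 0.46 in mice 2 and 3. For the guide strands centred likewise, the mean was -0.87, against 0.73 and 0.60. A median is here set beside a mean, and the levels differed. In littermate 1 the 8 lay between 11.18 and 15.76, and the guide strands between 7.42 and 8.31. Near the level of the guide strands, miR-194-1-3p was centred at -0.79, 0.88 and 0.64 in Cdr1as-/- mice 1 to 3.

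No epithelial miRNA passed the test in either direction with or without littermate 3, and the median log2 fold change of the list was 0.85 with all 6 arrays and -0.14 without littermate 3. With all 6 arrays the smallest p in the list were those of miR-141-3p (0.84 ± 0.80, log2 fold change ± SE) and miR-192-5p (0.69 ± 0.67). Without littermate 3 these were -0.11 ± 0.25 and -0.11 ± 0.23, and the smallest p were those of miR-200c-3p (-0.32 ± 0.26) and miR-429-3p (-0.33 ± 0.34).

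The other cell types that such tissue holds were read in the same way. The 6 immune miRNAs summed to 5915, 6160 and 607 among the littermates and 4484, 7447 and 4172 in the Cdr1as-/- mice. On all 6 arrays miR-142a-3p, a miRNA of blood cells, differed by 1.31 ± 1.14 and miR-155-5p by -0.23 ± 0.23. Without littermate 3 these were -0.07 ± 0.28 and -0.17 ± 0.24, and the smallest p were those of miR-146a-5p (-0.65 ± 0.49) and miR-142a-5p (-0.41 ± 0.33). The median of the list was 0.59 with 1 of 6 negative, and -0.32 with 6 of 6 negative without littermate 3.

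The 7 miRNAs of smooth muscle and mesenchyme summed to 2683, 2574 and 190 among the littermates and 6035, 5002 and 1154 in the Cdr1as-/- mice, with Cdr1as-/- mice 1 and 2 highest and littermate 3 lowest. The values of miR-143-3p and miR-145a-5p, which mark smooth muscle, were 2.03 ± 1.46 and 1.96 ± 1.39 with all 6 arrays, and 0.44 ± 0.66 and 0.41 ± 0.59 without littermate 3. The smallest p without littermate 3 were those of miR-199a-5p (-0.90 ± 0.48) and miR-199a-3p (-0.79 ± 0.50), which mark mesenchyme. The median of the list was 0.30 with 1 of 7 negative, and -0.11 with 4 of 7 negative without littermate 3.

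The 3 erythroid miRNAs summed to 1080, 304 and 109 among the littermates and 195, 290 and 208 in the Cdr1as-/- mice. Without littermate 3, miR-451a was 1 of the 3 lower at an unadjusted p (-1.498 ± 0.50, adjusted p = 0.270 in limma), beside 10.5% of all miRNAs, and miR-144-3p, from the same transcript, differed by -0.81 ± 0.36. Their levels were highest in littermate 1, at 9.95 and 6.25. Over all 6 arrays miR-451a differed by -0.30 ± 1.096 and miR-486a-5p by -0.19 ± 0.68. For miR-486a-5p the value without littermate 3 was 0.58 ± 0.29, in the other direction. The median of the list was -0.19 with 3 of 3 negative, and -0.81 with 2 of 3 negative without littermate 3.

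None of the 5 lists of cell type miRNAs had a member past the test after adjustment. In such tissue, fewer cells of a type and less RNA per cell cannot be told apart. The part of cell composition in the values of the cluster was not tested.

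The cluster is best known from sensory cells, and miRNAs of sensory, neuronal and endocrine cells were read beside it. Of 7 listed, 5 were in the table, and none passed the test in either direction. Their sums were 1190, 1218 and 119 among the littermates and 417, 1197 and 759 in the Cdr1as-/- mice, in which littermate 3 was again lowest and Cdr1as-/- mouse 1 next. The level of miR-375-3p, a miRNA of enteroendocrine and other endocrine cells, was 8.27, 8.47 and 5.01 among the littermates and 6.87, 8.18 and 7.88 in the Cdr1as-/- mice. Without littermate 3 it differed by -0.73 ± 0.37 and miR-7b-5p by -0.87 ± 0.42 (adjusted p = 0.388 each in limma). With all 6 arrays miR-7a-5p, a known partner of Cdr1as, differed by 0.55 ± 1.14, and without littermate 3 by -0.77 ± 0.43 (adjusted p = 0.397 in limma). For miR-124-3p, a neuronal miRNA with levels of 2.69 to 3.54, the difference was -0.20 ± 0.29 and -0.35 ± 0.28. The median log2 fold change of the list was 0.16 with all 6 arrays and -0.73 without littermate 3, beside -0.07 and 0.10 over all miRNAs.

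Other miRNAs known to act on FOXO transcripts, as miR-96-5p and miR-182-5p do, gave 0 of 9 past the test after adjustment. Over all 6 arrays none was past an unadjusted p of 0.05 either, with miR-155-5p at -0.23 ± 0.23 and miR-212-3p at -0.56 ± 0.69. Without littermate 3, 2 of 9 were lower at an unadjusted p, miR-212-3p (-1.31 ± 0.33, adjusted p = 0.247 in limma) and miR-221-3p (-0.80 ± 0.31, adjusted p = 0.345), beside 10.5% of all miRNAs. The level of miR-212-3p was 7.05, 6.63 and 4.59 among the littermates and 5.09, 6.11 and 5.38 in the Cdr1as-/- mice. Every Cdr1as-/- mouse thus lay between littermate 3 and the other 2 littermates. The median log2 fold change of these 9 was -0.19 with all 6 arrays and -0.56 without littermate 3.

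A single miRNA outside the cluster, among 1558 of the table with a RefSeq sequence, shared bases 2 to 7 with a guide strand. It was miR-1271-5p, whose whole 7-base seed is that of miR-96-5p and which is shown for that reason.
miR-1271-5p: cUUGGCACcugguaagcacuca
Its level was 4.93, 4.81 and 3.40 among the littermates and 3.59, 4.54 and 3.70 in the Cdr1as-/- mice, and littermate 3 was again lowest with Cdr1as-/- mouse 1 next. The log2 fold change was -0.43 ± 0.50 (SE) with all 6 arrays and -0.92 ± 0.32 without littermate 3. There the unadjusted p was 0.0174 and the adjusted p 0.270 in limma, where 10.5% of all miRNAs were lower at an unadjusted p below 0.05.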

How the data were processed

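Small RNA of the small intestine of 6 mice was labelled with Cy3 and hybridised to 1 array per mouse. The authors deposited the intensity of every spot as read by Agilent Feature Extraction 11.0.1.1, named in the submitters' processing notes, with its background-subtracted processed signal. The authors also deposited normalized log2 values for 10690 probes and, per mouse, for 1831 miRNAs. The normalization and the alignment of probes to a genome build are not given in the sources used here, and the study's methods name an LNA array where the files are Agilent scanner output. Averaging 1 to 5 probes on the linear scale and taking log2 gave every deposited miRNA value to within 0.0002, which assigned 8437 probes to miRNAs. The authors' columns of fold changes (ratio and log2), p-values and q-values were not used.

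A linear model with moderated variances (limma 3.58.1, R 4.3.3; lmFit, then eBayes) was fitted to the deposited log2 values (no covariate, all 1831 miRNAs, no filter), and p-values were adjusted by the Benjamini-Hochberg method, with a threshold of 0.05. Strand differences were fitted alike over the 659 pairs. Other single values were compared by exact permutation (two-sided). On simulated data with 200 of 1831 miRNAs changed 4-fold, 66% were recovered after adjustment with 6 arrays and 90% without littermate 3. The simulated noise was independent for each miRNA. The changed miRNAs were drawn at random from the table, whereas each 5p strand had a larger SD than 92.2% of miRNAs or more. These shares are therefore not those of the cluster. Signals before scaling are those of the probe with the highest mean log2 signal. Levels of different probes were not compared as abundance. The number of arrays limits the precision.

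The members and lists were chosen with earlier results of these data known. Named were the 6 members, the 5 miRNAs of most similar profile and, in each list, every miRNA at an unadjusted p below 0.05 or, where fewer than 2 were, the 2 with the smallest p. The lists were epithelial, immune, smooth muscle and mesenchyme, erythroid, sensory with neuronal and endocrine, FOXO-directed, and seed relatives. miR-204-5p and miR-211-5p were not analysed here. Settings varied were scaling, background correction, filter, test, slide and replicates. Python 3.11.15, NumPy 2.4.6, pandas 2.3.3, SciPy 1.17.1 and matplotlib 3.10.9 were used.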

Additional observations from a re-analysis of the deposited data

How the results depend on the processing

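No setting brought a member of the cluster, or the strand difference of its hairpins, past the threshold after adjustment. Over the whole table no miRNA passed in any setting, and of the 659 strand differences 1, that of miR-6976, which is named because its value was seen, passed by the methods' t-test without littermate 3 (lowest adjusted p = 0.0281). Over all settings the lowest adjusted p in limma was 0.274 for miR-183-5p, 0.388 for miR-182-5p and miR-183-3p, 0.393 for miR-96-5p, 0.397 for miR-96-3p and 0.489 for miR-182-3p. The direction of miR-96-3p was the same in all 24 alternatives run for it, and that of the differences of miR-96-5p from miR-183-5p and of miR-182-5p from miR-96-5p in all 18 run for them. The change of miR-182-5p minus miR-183-5p was -0.11 with the slide as a block and -0.0010 with the scanner output scaled to its 75th percentile and without littermate 3, against 0.19. The other members changed direction with the array left out, with the slide as a block or with the scaling, and the cause was not tested. With 3 mice per group, the SE was above 1 (log2) for each 5p strand, which limits what could be detected.

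With a single array left out, the log2 fold change ranged from -0.95 to 0.90 for miR-182-5p, from -0.13 to 0.15 for miR-182-3p, from -1.11 to 0.73 for miR-183-5p, from -0.50 to 0.26 for miR-183-3p, from -0.88 to 1.29 for miR-96-5p and from -0.40 to -0.18 for miR-96-3p. The change of the strand difference ranged from -0.97 to 0.99 for Mir182, from -0.61 to 0.47 for Mir183 and from -0.48 to 1.47 for Mir96. That of the 5p differences ranged from 0.10 to 0.34 (miR-182-5p minus miR-183-5p), from 0.22 to 0.57 (miR-96-5p minus miR-183-5p) and from -0.39 to -0.07 (miR-182-5p minus miR-96-5p). The count of miRNAs at an unadjusted p below 0.05 ranged from 0 to 192 lower and from 0 to 50 higher, and both highest counts were those without littermate 3.

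With the slide as a block, miR-182-5p was -0.85, miR-183-5p -0.74 and miR-96-5p -0.56, and the strand differences of Mir182, Mir183 and Mir96 were -0.89, -0.49 and -0.30. Slide 2 held no littermate, so every value with this block is Cdr1as-/- mouse 1 minus the mean of the 3 littermates. It rests on 1 mouse against 3 and repeats the comparison within slide 1. With the scanner output scaled to its 75th percentile and without littermate 3, miR-182-5p was -1.04, miR-183-5p -1.04 and miR-96-5p -0.91. There the strand differences of Mir182, Mir183 and Mir96 were -1.05, -0.52 and 0.31. When littermate 3 was left out of the methods' t-test, the values were those of limma, -0.95, -1.11 and -0.88 for the 5p strands and -0.97, -0.61 and -0.48 for the strand differences of Mir182, Mir183 and Mir96. By that test miR-96-3p had an unadjusted p of 0.0038 (adjusted p = 0.515), with an SD of 0.012 among the Cdr1as-/- mice. By the same test 130 of 1831 miRNAs were lower at an unadjusted p below 0.05. This strand lay near the lowest values of the arrays, and in Cdr1as-/- mouse 2 0 of its 5 probes were well above background. Its probes differed, with 3 of 5 lower and changes from -0.85 to 0.05. With normexp and quantile normalization, miR-183-5p was -0.12 and the strand difference of Mir183 -0.092. miR-183-3p was 0.038 with the 75th percentile and with a floor, 0.14 with that percentile over all probes, 0.088 with quantile normalization and 0.021 after median centring, and miR-182-3p was -0.074 with the mean over probes. The 75th percentile moved the median over all miRNAs to -0.19 and the mean over probes moved it to -0.24, from -0.07.

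Alternatives chosen after seeing the data were those without scaling, those without 2 arrays, the t-test or filter without littermate 3, the blocks, tests and filter for strand differences, and the blocks and the 75th percentile without littermate 3 for the differences between 5p strands. Without scaling, miR-182-5p was -0.20, miR-182-3p -0.43 and miR-183-5p -0.34. Without scaling or littermate 3, miR-182-5p and miR-183-5p were both -0.11 and miR-183-3p 0.41. Without littermate 3 and Cdr1as-/- mouse 1, miR-182-5p was -0.38, miR-183-5p -0.69 and miR-96-5p -0.34. The strand differences of Mir182, Mir183 and Mir96 were -0.38, -0.31 and 0.07 there. On the same arrays without scaling, miR-182-5p was -0.10, miR-183-5p -0.21 and miR-183-3p 0.14.

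At an unadjusted p below 0.05 the lower and the higher miRNAs numbered 4 and 2, 1 and 0 with the 75th percentile, 7 and 2 with quantile normalization or an intensity trend, and 19 and 2 with the methods' t-test. Without littermate 3 they numbered 130 and 44 by the t-test, 187 and 31 with the filter, and 150 and 20 when Cdr1as-/- mouse 1 was left out too. By the t-test none passed after adjustment. miR-182-3p has no value under the filter. The replicate numbers are no pairing in the labels, and the correlations of deviations between arrays of the same number were -0.76, 0.56 and -0.22. With the replicate block the values of the members were as without it, 0.29 for miR-182-5p and 0.10 for miR-183-5p, with 1 lower and 2 higher miRNAs at that p. Among the 659 strand differences it left 1 lower and 0 higher at that p, against 3 and 1 without it. It changed no call of the cluster.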
